A study of Mus musculus with 18 samples.

Results

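The constant regions of IgA, IgG2b, IgG2c, and IgG3 heavy chains were followed in B cells of spleen and Peyer's patches (PPs) by bulk RNA-Seq. They are encoded by *Igha*, *Ighg2b*, *Ighg2c*, and *Ighg3*, 4 of the 8 heavy-chain constant region genes and of the 55491 genes in the table, and they were chosen by gene symbol. All 4 had counts in all 18 libraries. Female BALB/cJ mice, aged 10 to 12 weeks per the labels and younger at sensitization, were all sensitized to ovalbumin (OVA), the PBS-treated mice included, with 20 µg OVA in 1 mg alum given i.p. on days 0 and 14. On days 28 and 42 they received i.v. 2.5 mg OVA NPs (particles of the polymer PLG that encapsulate OVA), 100 µg soluble OVA, or 100 µL PBS. B cells were enriched on day 44 by magnetic removal of other cells. The 3 treatments in 2 tissues made 6 groups of 3 libraries, which the labels call biological replicates. The labels do not say whether spleen and PP libraries came from the same mice.

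B cells first make IgM and IgD and can then replace the constant region of their antibody by class switch recombination, in which DNA is broken and rejoined at switch regions before the constant region genes. The variable region, and with it the antigen specificity, is kept. PPs are the lymphoid follicles of the small intestine and are known for standing germinal centers and for switching to IgA, the secreted isotype of mucosal surfaces, under TGF-β. IgG2b switching is also promoted by TGF-β, IgG2a and IgG2c switching by IFN-γ and T-bet, and IgG3 is known as an isotype of responses that need little T cell help. Before switching, B cells make noncoding germline transcripts of the constant region that will be used, and a count per gene does not separate these from mRNA of switched cells, nor membrane from secreted forms. In such bulk samples, fewer cells of a type and less RNA per cell cannot be told apart.

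The 4 genes lie on the minus strand of chromosome 12 (GRCm38), in the order *Ighg3* (chr12:113356224-113361232), *Ighg2b* (chr12:113302965-113307933), *Ighg2c* (chr12:113285325-113288932), and *Igha* (chr12:113254830-113260236) from 5′ to 3′. *Ighg1* lies between *Ighg3* and *Ighg2b*. Each has 2 annotated transcripts. The IgG genes are near copies of each other, and the shortest transcripts of *Ighg2b* and *Ighg2c* were identical at 86.4% of aligned bases, against 76.2% and 76.6% for each with *Ighg3* and 55.7% to 59.6% for *Igha* with the 3 IgG genes named here. They differ most visibly in the hinge, the flexible stretch that joins the antigen-binding arms to the stem. The hinge exons (exon 2 of each IgG gene, from the GENCODE M21 transcripts) are shown because they tell apart the closest pair, *Ighg2b* and *Ighg2c*, whose levels stood furthest apart in PPs of soluble OVA–treated mice, at 543 and 5.98 CPM per kb. Capitals mark in-frame cysteine codons, which can form the disulfide bonds between heavy chains.
*Ighg3* hinge exon, chr12:113360529-113360576: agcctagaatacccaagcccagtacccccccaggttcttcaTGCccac
*Ighg2b* hinge exon, chr12:113307261-113307326: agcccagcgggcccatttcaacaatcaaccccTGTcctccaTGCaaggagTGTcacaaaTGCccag
*Ighg2c* hinge exon, chr12:113288263-113288325: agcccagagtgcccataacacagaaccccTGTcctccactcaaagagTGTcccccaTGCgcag
The *Ighg3* exon holds 48 bases and 1 cysteine codon, the *Ighg2b* exon 66 bases and 4, and the *Ighg2c* exon 63 bases and 3. *Igha* has no separate hinge exon.

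Of all stretches of 75 bases in the transcripts, 0.768% of those of *Ighg2b* also occurred in *Ighg3* or *Ighg2c*, 0.574% of those of *Ighg3* and 0.480% of those of *Ighg2c* occurred in *Ighg2b*, and 0 of the 2594 of *Igha* occurred in another constant region. How the counting divided reads of these stretches was not tested. The reference is the C57BL/6 genome, which carries *Ighg2c* where BALB/c mice carry *Ighg2a*. *Ighg2a* was not analysed here, so each *Ighg2c* value is the count of reads that were placed on the gene of the other strain.

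Library totals ran from 14177253 to 30052297 counts, and 3 counts corresponded to between 0.0998 and 0.212 counts per 1000000 counts of the library (CPM), a limit that covers counting error only. The 8 constant regions took 0.441% to 0.614% of all counts. Summed levels of 5 B cell markers were at 6419 to 7452 CPM in the spleen and 4439 to 5384 CPM in PPs. Of the other marker lists, 6 T cell markers summed to 1.46 to 4.28 CPM in the spleen and 5.04 to 29.7 CPM in PPs, 4 NK cell markers to 3.86 to 6.32 and 12.8 to 42.6, 5 monocyte and macrophage markers to 29.7 to 209.6 and 84.1 to 211, 4 dendritic cell markers to 13.3 to 22.9 and 20.9 to 35.4, 4 erythroid markers to 5.49 to 21.7 and 0.212 to 2.95, and 4 neutrophil markers to 59.7 to 241 CPM in the spleen and to at most 21.5 CPM in PPs. All 4 neutrophil markers were at 0 in 4 of the 9 PP libraries. The 6 epithelial markers, which include *Epcam* and *Vil1*, summed to 6.70 to 10.1 CPM in the spleen and 184 to 994 CPM in PPs. Mitochondrial genes took 2.82% to 3.41% of the counts in the spleen and 4.97% to 9.80% in PPs, where the highest shares were in OVA NP–treated mice.

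*Igha* was the constant region that differed most between the tissues. In splenic B cells its level was 5.36, 6.34, and 6.23 CPM in the 3 PBS libraries, 5.54, 9.19, and 6.81 CPM with soluble OVA, and 6.84, 8.35, and 4.83 CPM with OVA NPs. In PP B cells it was 638, 379.9, and 584 CPM with PBS, 1320.4, 1199, and 1062 CPM with soluble OVA, and 1179, 817, and 603 CPM with OVA NPs. The 9 PP libraries were all above the 9 spleen libraries, and the means of PP and spleen differed 89.3-fold with PBS, 166-fold with soluble OVA, and 129.8-fold with OVA NPs. A gene was called when its adjusted p (edgeR, over all tested genes) was under 0.05 and its log2 fold change was beyond 0.25 in either direction. *Igha* was called higher in PPs under each treatment, with log2 fold changes of 6.56 (SE 0.27, adjusted p = 1.40e-05) with PBS, 7.48 (SE 0.19, adjusted p = 1.85e-07) with soluble OVA, and 7.14 (SE 0.38, adjusted p = 0.000123) with OVA NPs. Epithelial markers moved with the tissue as well, and their part in the *Igha* difference was not tested. Among PP libraries, the one with the highest *Igha*, soluble OVA replicate 1, had an epithelial sum of 235 CPM. The one with the highest epithelial sum, soluble OVA replicate 2 at 994 CPM, had 1199 CPM of *Igha*. In PBS replicate 2 both were the lowest, at 379.9 CPM of *Igha* and an epithelial sum of 184 CPM. In OVA NP replicate 1 both were the highest of its group, at 1179 and 969 CPM.

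*Ighg2b* differed by treatment as well as by tissue. Its level in spleen was 11.1, 6.84, and 13.0 CPM with PBS, 33.2, 20.9, and 31.3 CPM with soluble OVA, and 13.5, 17.3, and 17.1 CPM with OVA NPs. In PPs it was 81.7, 148, and 154 CPM with PBS, 1609, 1459, and 1292 CPM with soluble OVA, and 193, 73.1, and 107 CPM with OVA NPs. The 3 PP libraries of soluble OVA–treated mice were above all others, and the PBS and OVA NP libraries of PPs overlapped. *Ighg2b* was called higher in PPs than in spleen with log2 fold changes of 3.71 (SE 0.38, adjusted p = 0.000998) with PBS, 5.74 (SE 0.21, adjusted p = 7.90e-07) with soluble OVA, and 3.05 (SE 0.42, adjusted p = 0.00440) with OVA NPs.

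*Ighg3* differed less between the tissues than *Igha* and *Ighg2b*. Its level in spleen was 39.4, 35.2, and 51.2 CPM with PBS, 45.7, 49.5, and 75.04 CPM with soluble OVA, and 51.9, 50.1, and 46.7 CPM with OVA NPs. In PPs it was 102.4, 109.9, and 66.6 CPM with PBS, 146, 222, and 177 CPM with soluble OVA, and 126, 87.9, and 85.3 CPM with OVA NPs. Within each treatment every PP library was above every spleen library, with log2 fold changes of 1.23 (SE 0.24, adjusted p = 0.00809) with PBS, 1.75 (SE 0.24, adjusted p = 0.00207) with soluble OVA, and 1.11 (SE 0.14, adjusted p = 0.000596) with OVA NPs.

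*Ighg2c* had the lowest counts of the 4 genes, with 16 to 84 per library in the spleen and 17 to 403 in PPs. These are reads placed on the gene of the other strain. Its PP counts were 21, 17, and 129 with PBS, 403, 122, and 141 with soluble OVA, and 57, 23, and 44 with OVA NPs, which correspond to 0.861, 1.20, and 6.70 CPM, 13.4, 4.59, and 5.81 CPM, and 2.68, 1.03, and 1.94 CPM. PBS replicate 3 stood far above the other PBS libraries and inside the range of the soluble OVA libraries. In the spleen the means were 1.49 ± 0.929 CPM with PBS, 1.44 ± 0.398 CPM with soluble OVA, and 1.98 ± 1.15 CPM with OVA NPs (SD, n = 3). *Ighg2c* was called higher in PPs only with soluble OVA, with a log2 fold change of 2.52 (SE 0.45, adjusted p = 0.00197). The values were 1.05 (SE 0.86, adjusted p = 0.350) with PBS and -0.01 (SE 0.48, adjusted p = 0.984) with OVA NPs. Without PP PBS replicate 3 the first of these was -0.46 (adjusted p = 0.524).

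Across all genes, 25.5% of 15463 tested were called higher in PPs than in spleen with PBS, 26.7% of 15415 with soluble OVA, and 22.0% of 15466 with OVA NPs, against 3, 4, and 3 of the 4 constant regions. Of the other constant regions, *Ighm* and *Ighd* were called lower in PPs under each treatment, with log2 fold changes from -0.85 to -1.09 for *Ighm* and from -0.80 to -2.17 for *Ighd*. *Ighg1* was called higher in PPs with PBS (log2 fold change 4.80) and OVA NPs (0.97) and lower with soluble OVA (-1.72).

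**Figure D1:**
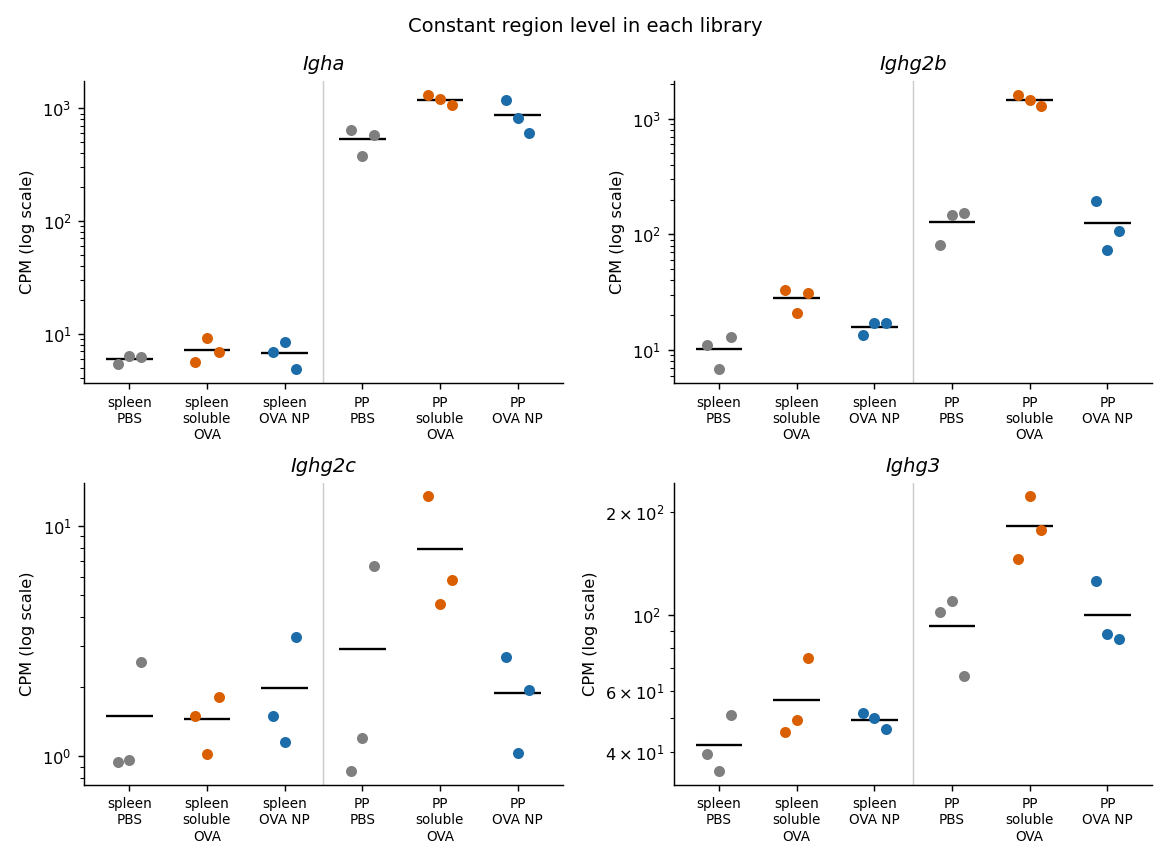
Level of *Igha*, *Ighg2b*, *Ighg2c*, and *Ighg3* in CPM (log scale) in each of 18 libraries by tissue and treatment. Points are libraries and lines are group means of 3 libraries. The 3 PP libraries of soluble OVA–treated mice lie at 1292 to 1609 CPM of *Ighg2b*, above all other libraries.

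Set in order, the group means of *Igha* ran from PP soluble OVA over PP OVA NP and PP PBS to the 3 spleen groups. Neighboring PP groups in this order overlapped, as did neighboring spleen groups. *Ighg2b* ran from PP soluble OVA to PP PBS and PP OVA NP, which overlapped, and then through spleen soluble OVA, spleen OVA NP, and spleen PBS, which did not overlap with their neighbors. For *Ighg3*, PP soluble OVA stood alone at the top and every other neighboring pair overlapped. For *Ighg2c* every neighboring pair overlapped. To set different genes side by side, levels were divided by exonic length, the union of the annotated transcripts of a gene. That length was 2678 bases for *Ighg2b* and 1326 for *Ighg2c*, against 1114 and 1111 for their shortest transcripts. Ratios between genes therefore depend on this choice. By this measure, the order in PPs of soluble OVA–treated mice was *Ighg2b* at 543 ± 59.1 CPM per kb, *Igha* at 448 ± 48.4, *Ighg3* at 72.2 ± 15.1, and *Ighg2c* at 5.98 ± 3.61 (SD, n = 3). In PPs of PBS-treated mice *Igha* led with 200.2 ± 51.1 CPM per kb, and *Ighg2b* and *Ighg3* followed with 47.8 ± 14.97 and 37.0 ± 9.20. In spleens of PBS-treated mice *Ighg3* led with 16.7 ± 3.30 CPM per kb, and the other 3 were between 1.12 and 3.85.

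The treatments were then compared within each tissue. Against PBS, soluble OVA raised 3 of the 4 genes in PPs. *Ighg2b* rose from 128 ± 40.1 to 1453 ± 158 CPM, a log2 fold change of 3.53 (SE 0.29, adjusted p = 0.000845), which ranked 34 of the 15792 tested genes by size. *Igha* rose from 534 ± 136 to 1194 ± 129 CPM, with a log2 fold change of 1.18 (SE 0.20, adjusted p = 0.00724). *Ighg3* rose from 93.0 ± 23.1 to 181 ± 38.0 CPM, with a log2 fold change of 0.98 (SE 0.26, adjusted p = 0.0427). The groups of these 3 genes did not overlap, and the share of all tested genes with such groups is not given. In this comparison 6230 of the 15792 tested genes had an unadjusted p under 0.05 (edgeR). *Ighg2c* was at 2.92 ± 3.28 and 7.93 ± 4.78 CPM, with overlapping groups and a log2 fold change of 1.47 (SE 0.93, adjusted p = 0.313). Thus 3 of the 4 were called higher, against 13.5% of all tested genes, and 0 were called lower, against 13.9%. The *Igha* and *Ighg2b* calls held without any 1 library. The *Ighg3* call was lost without PBS replicate 1 (adjusted p = 0.0986) or 2 (0.0501) and without soluble OVA replicate 2 (0.0666) or 3 (0.0873), and *Ighg2c* was called without PBS replicate 3, with a log2 fold change of 3.02 (adjusted p = 0.0146).

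Of the other constant regions, 3 fell in this comparison. *Ighg1*, of the main isotype of responses to alum, fell from 872 to 172 CPM (log2 fold change -2.32, SE 0.13, adjusted p = 8.22e-05), *Ighd* fell by 1.48 (SE 0.13) and *Ighm* by 0.47 (SE 0.08) on the log2 scale, and *Ighe* was not called (0.27, SE 0.40). The per-library ratio of *Ighg2b* to *Ighg1* in CPM per kb was 7.11 to 10.8 with soluble OVA and 0.0811 to 0.191 with PBS. The summed epithelial markers were at 184 to 674 CPM with PBS and at 235 to 994 CPM with soluble OVA, and of the 6 none was called in this comparison. Of the 6 plasma cell markers, which include *Jchain*, *Sdc1*, and *Xbp1*, 5 were tested and 2 were called higher, with sums of 596 to 694 CPM with PBS and 736 to 794 CPM with soluble OVA. The part of plasma cells in the result was not tested.

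With OVA NPs, PP levels of the 4 genes were not distinguished from those with PBS. *Igha* was at 866 ± 292 CPM with OVA NPs and 534 ± 136 with PBS (log2 fold change 0.71, SE 0.31, adjusted p = 0.524), and OVA NP replicate 3 lay inside the PBS range. *Ighg2b* was at 125 ± 61.9 and 128 ± 40.1 CPM (-0.03, SE 0.45, adjusted p = 0.987). *Ighg3* was at 99.7 ± 22.9 and 93.0 ± 23.1 CPM (0.11, SE 0.24, adjusted p = 0.896). *Ighg2c* was at 1.88 ± 0.827 and 2.92 ± 3.28 CPM (-0.62, SE 0.80, adjusted p = 0.818). In this comparison 0 of 15798 genes (0%) passed in edgeR, with 1573 at an unadjusted p under 0.05, and 150 passed in DESeq2, none of them among the 4.

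OVA NPs and soluble OVA deliver the same antigen, and in PPs 3 of the 4 genes were lower with OVA NPs. *Ighg2b* was lower with OVA NPs, with a log2 fold change of -3.57 (SE 0.42, adjusted p = 0.00380), the fourth largest of 15599 tested genes by size. *Ighg3* was lower by a log2 fold change of -0.88 (SE 0.19, adjusted p = 0.0159) and *Ighg2c* by -2.12 (SE 0.53, adjusted p = 0.0235). The *Ighg2c* values are reads placed on the gene of the other strain, and whether any came from *Ighg2b* was not tested. The groups of *Ighg2b*, *Ighg3*, and *Ighg2c* did not overlap, and the share of all tested genes with such groups is not given. Here 6482 of the 15599 tested genes had an unadjusted p under 0.05 (edgeR). *Igha* was not called, with a log2 fold change of -0.49 (SE 0.25, adjusted p = 0.205) and OVA NP replicate 1 at 1179 CPM inside the soluble OVA range. The 3 calls compare with 16.3% of all tested genes called lower and 13.8% higher. The *Ighg2b* call held without any 1 library. The *Ighg3* and *Ighg2c* calls were lost without OVA NP replicate 2 (adjusted p = 0.0662 and 0.0544) or 3 (0.0626 and 0.0681), and *Igha* was called lower without OVA NP replicate 1 (log2 fold change -0.82, adjusted p = 0.0160). This comparison shares the soluble OVA libraries with the one against PBS. The T cell markers moved with it, with 4 of 6 called higher with OVA NPs and sums of 19.5 to 29.7 CPM against 5.04 to 11.1 CPM, and mitochondrial genes took 9.08% to 9.80% of counts against 4.97% to 6.02%. Of the 4 dendritic cell markers, 3 were called higher with OVA NPs and 1 lower. Of 4 tested monocyte and macrophage markers 2 were higher, of 4 NK cell markers 1, and of 1 tested erythroid marker 1. No B cell, epithelial, or plasma cell marker was called. The part of these cell types and of mitochondrial genes in the result was not tested.

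In the spleen, *Ighg2b* was the 1 member that rose with soluble OVA, from 10.3 ± 3.14 to 28.4 ± 6.62 CPM (log2 fold change 1.502, SE 0.28, adjusted p = 0.0124), and its groups did not overlap. *Igha*, *Ighg2c*, and *Ighg3* had log2 fold changes of 0.27 (SE 0.19, adjusted p = 0.341), -0.00 (SE 0.42, adjusted p = 0.997), and 0.46 (SE 0.25, adjusted p = 0.274). Of all 14128 tested genes, 10.5% were called higher and 6.72% lower, and 4707 had an unadjusted p under 0.05 (edgeR). The *Ighg2b* call was lost without soluble OVA replicate 1 (log2 fold change 1.37, adjusted p = 0.0750) or 3 (1.45, adjusted p = 0.0542). Of the 6 plasma cell markers, 3 were called higher, with sums of 169 to 242 CPM with PBS and 329 to 397 CPM with soluble OVA, and 3 of 5 monocyte and macrophage markers were called lower.

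With OVA NPs none of the 4 was called against PBS in the spleen, where 8.60% of 14200 genes were called higher and 6.35% lower. *Ighg2b* was at 16.0 ± 2.14 against 10.3 ± 3.14 CPM, with every OVA NP library above every PBS library, a log2 fold change of 0.66 (SE 0.23), and an adjusted p of 0.0815. It passed in DESeq2 (adjusted p = 0.0137), without the filter on low counts (1.02e-05), and without PBS replicate 3 (0.0225), where *Ighg3* passed as well (log2 fold change 0.42, adjusted p = 0.00329). *Ighg3*, *Ighg2c*, and *Igha* had log2 fold changes of 0.26 (SE 0.13), 0.48 (SE 0.51), and 0.16 (SE 0.19). Between OVA NPs and soluble OVA, 0 of the 4 and 0.238% of 13840 genes were called. There *Ighg2b* was lower with OVA NPs in every library (log2 fold change -0.84, SE 0.18, adjusted p = 0.155), and it passed in DESeq2 (0.00257), without the filter on low counts (2.58e-10), and without soluble OVA replicate 2 (-1.01, adjusted p = 0.0136). *Ighg1* and *Ighe*, in contrast, rose with both forms of OVA in the spleen, with log2 fold changes of 4.19 and 2.28 with soluble OVA and 3.73 and 2.26 with OVA NPs.

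**Figure D2:**
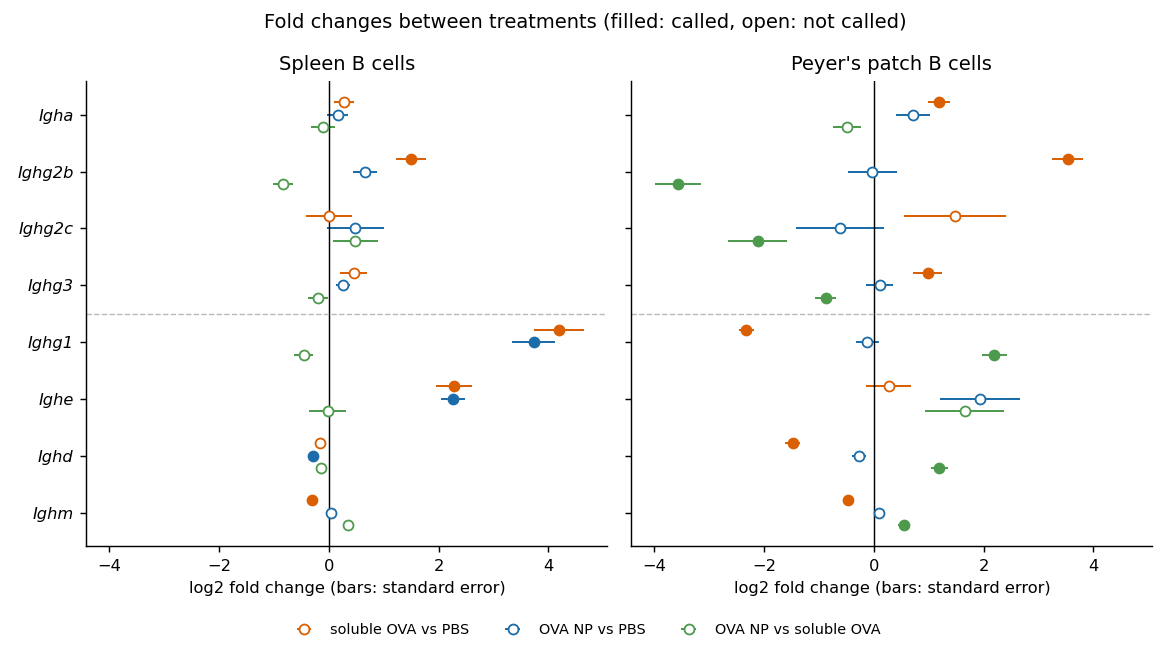
Log2 fold changes between treatments in spleen (left) and Peyer's patch B cells (right) for the 4 genes (above the dashed line) and the 4 other constant regions, with bars of 1 standard error from 3 libraries against 3 and filled points for called genes. In PPs the soluble OVA points of *Ighg2b* (3.53), *Igha* (1.18), and *Ighg3* (0.98) lie right of 0 and that of *Ighg1* (-2.32) left of it.

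Whether the effect of a treatment differed between spleen and PPs was tested with an interaction term, fitted to 12 libraries. For soluble OVA against PBS, *Ighg2b* had an interaction of 2.03 on the log2 scale (SE 0.43, adjusted p = 0.0246), so its rise was larger in PPs. The other 3 were not called, with 0.93 (SE 0.31, adjusted p = 0.104) for *Igha*, 1.49 (SE 1.09, adjusted p = 0.499) for *Ighg2c*, and 0.53 (SE 0.38, adjusted p = 0.496) for *Ighg3*. Of all 16541 genes tested, 1.77% were called in this direction. The *Ighg2b* call was lost without spleen PBS replicate 1 (adjusted p = 0.0742) or 3 (0.0681), spleen soluble OVA replicate 2 (0.0559), or PP soluble OVA replicate 2 (0.0576). *Ighg2c* was called without PP PBS replicate 3 (2.99, adjusted p = 0.0425) and *Igha* in DESeq2 (0.93, adjusted p = 0.0421). *Ighg1*, *Ighd*, and *Ighe* had interactions of the other sign, -6.51 (SE 0.47), -1.31 (SE 0.16), and -1.99 (SE 0.49). For OVA NPs against PBS, 0 of the 4 passed, with adjusted p between 0.562 and 0.879, where 4.42% of 16619 genes passed in either direction.

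Shares of the summed CPM per kb of the 8 constant regions described the mix of isotypes within each library. The 8 do not include *Ighg2a*, which BALB/c mice carry in place of *Ighg2c*, so no share counts that isotype as such. *Igha* made up 0.0740% ± 0.0104 of this sum in spleens of PBS-treated mice and 9.37% ± 2.41, 21.7% ± 1.43, and 14.4% ± 3.43 in PPs with PBS, soluble OVA, and OVA NPs (SD, n = 3). *Ighg2b* made up 2.23% ± 0.706, 26.3% ± 1.75, and 2.04% ± 0.778 in the same PP groups. The 3 soluble OVA libraries held 24.3% to 27.7% of *Ighg2b*, and no other library held more than 2.87%. *Ighg3* made up 1.73% ± 0.420, 3.53% ± 0.847, and 1.77% ± 0.198, and *Ighg2c* made up 0.104% ± 0.117, 0.286% ± 0.158, and 0.0627% ± 0.0222.

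Over all treatments, the mean share of *Igha* was 15.2% in PPs and 0.0849% in the spleen (exact two-sided permutation test within treatments, p = 0.00025, the smallest it can give, adjusted p = 0.00233 over 28 tests). *Ighg2b* and *Ighg3* gave the same p, with 10.2% against 0.236% and 2.34% against 0.674%. *Ighg2c* was at 0.151% against 0.0419% (exact p = 0.0148, adjusted p = 0.103). Between treatments within a tissue, 3 libraries against 3 cannot give an exact p under 0.1. The shares of *Igha*, *Ighg2b*, and *Ighg3* reached it in PPs for soluble OVA against PBS, with differences of 12.3, 24.1, and 1.80 percentage points (adjusted p = 0.200 each). The shares of every member also reached it in PPs between OVA NPs and soluble OVA, as did that of *Ighg2b* in each spleen comparison. For *Igha* in PPs the share was 10.8% to 17.6% with OVA NPs and 20.1% to 22.8% with soluble OVA.

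Together the switched isotypes (all but *Ighm* and *Ighd*) took 1.26% ± 0.418 of the sum in spleens of PBS-treated mice, 10.0% ± 2.03 with soluble OVA, and 6.68% ± 0.690 with OVA NPs. In PPs they took 29.2% ± 3.87, 55.1% ± 3.07, and 32.5% ± 2.44. Among the switched isotypes alone, *Ighg3* held 44.5% ± 4.37 in spleens of PBS-treated mice and 5.48% to 6.40% on average in the PP groups, so by this measure it was lower in PPs (mean 5.98% against 20.8% in the spleen, exact permutation p = 0.00075, adjusted p = 0.0105), the reverse of its level. *Ighg2c* was at 0.354% against 1.31%, which did not pass (exact permutation p = 0.0180, adjusted p = 0.165). *Ighg2b* held 47.8% ± 1.28 of the switched level in PPs with soluble OVA, 7.88% ± 3.09 with PBS, and 6.37% ± 2.74 with OVA NPs. *Igha* held 39.4% ± 1.03, 31.7% ± 4.34, and 44.4% ± 11.1.

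**Figure D3:**
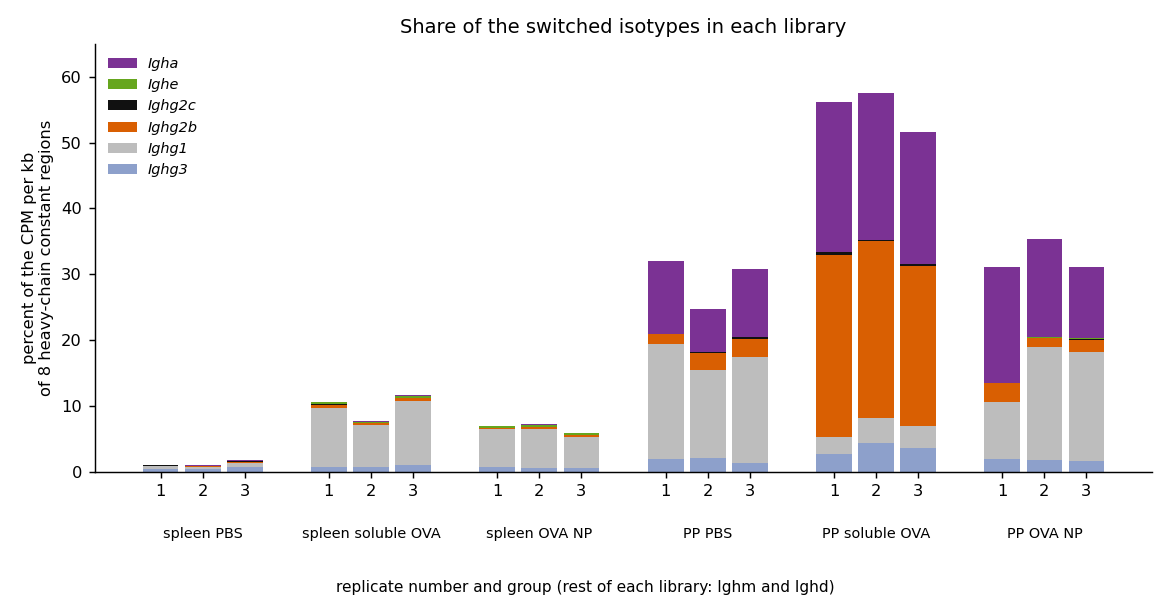
Share of each switched isotype in the summed CPM per kb of 8 heavy-chain constant regions (*Ighg2a* is not among them). There is 1 stacked bar per library, and the rest of each library is made up by *Ighm* and *Ighd*. The PP libraries of soluble OVA–treated mice reach 51.7% to 57.5%, with *Ighg2b* and *Igha* as the largest parts, and the spleen libraries of PBS-treated mice stay at 0.994% to 1.75%.

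The genes around class switching were described with lists of their known roles. In PPs with soluble OVA against PBS, 11 of 23 genes of the class switch recombination machinery were called higher and 0 lower, against 13.5% and 13.9% of all tested genes, with a median log2 fold change of 0.32 against -0.02 for all. They included *Exo1*, an exonuclease (1.20, SE 0.10), the end-joining ligase gene *Lig4* (0.90, SE 0.09), and *Msh6* of mismatch repair (0.75, SE 0.09). Of 11 germinal center genes, 9 were called higher and 1 lower (median 0.65), against the same shares of all genes, among them *Nuggc* (1.16, SE 0.08), *Mybl1* (0.91, SE 0.10), and *Mef2b* (0.73, SE 0.08).

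The lists of signals and receptors in the same comparison are read against 13.9% of all tested genes called lower and 13.5% higher. Of 13 tested genes of the signals for IgA switching, 4 were called lower and 1 higher (median -0.28), with *Rara*, a retinoic acid receptor (-1.29, SE 0.08), *Smad3*, which carries TGF-β signals (-0.86, SE 0.14), *Runx3* (-0.79, SE 0.10), and *Tgfbr2*, a TGF-β receptor (-0.49, SE 0.10), the lower ones. On the IFN-γ and T-bet list, 1 of 12 was called higher, *Tbx21*, which encodes T-bet (0.61, SE 0.17), and 5 were called lower, among them *Il6st* (-1.32, SE 0.15), *Il27ra* (-1.30, SE 0.09), and *Ifngr2* (-0.82, SE 0.08). Of 11 genes of IgA memory and gut homing, 8 were called lower and 1 higher (median -0.77), with the largest changes in *Gpr183*, a guidance receptor (-1.71, SE 0.27), *Itgb7*, the β7 integrin (-1.32, SE 0.10), and *Ccr6* (-1.15, SE 0.12). Of 3 tested receptors for BAFF, APRIL, and CD40 ligand, 2 were called lower, *Cd40* (-0.63, SE 0.08) and *Tnfrsf13b* (-0.37, SE 0.06).

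Of 12 tested genes of antibody-secreting cells, 5 were called higher and 1 lower (median 0.28), against 13.5% and 13.9% of all tested genes. *Jchain*, which joins IgA into dimers, rose from 509 ± 46.8 to 641 ± 31.3 CPM (0.35, SE 0.09, adjusted p = 0.0149). *Mzb1* (0.61, SE 0.09) and *Creld2* (0.53, SE 0.08), which both encode proteins of the endoplasmic reticulum, rose as well. *Irf4* fell by 1.297 (SE 0.23). *Prdm1*, *Xbp1*, and *Sdc1* had log2 fold changes of -0.18, -0.04, and 0.01 and were not called. Of 9 genes for antibody receptors and transport, 5 were called lower and 0 higher (median -0.54), led by *Fcer2a*, the low-affinity IgE receptor CD23 (-1.61, SE 0.12). Of 9 B-1 and marginal zone genes, 5 were called lower and 1 higher (median -0.70). The share of all genes called lower was 13.9%.

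The comparison of OVA NPs with soluble OVA in PPs, which uses the same soluble OVA libraries, gave 10 of 23 class switch genes and 9 of 11 germinal center genes lower and 0 of either list higher. Of 11 genes of IgA memory and gut homing 8 were higher and 1 lower, and of 12 genes of the IFN-γ and T-bet axis 6 were higher and 1 lower. Of all tested genes, 16.3% were lower and 13.8% higher. *Mzb1* was lower by a log2 fold change of -0.73 (SE 0.10), and *Jchain* was at 0.04 (SE 0.10). None of the listed genes was called between OVA NPs and PBS in PPs.

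In the spleen, 10 of 11 germinal center genes rose with soluble OVA (median 3.00) and 8 of 11 with OVA NPs (median 2.56), and 0 fell. Of all tested genes, 10.5% were called higher and 6.72% lower with soluble OVA, and 8.60% and 6.35% with OVA NPs. *Nuggc* had log2 fold changes of 3.61 (SE 0.53) and 3.03 (SE 0.53). Of the class switch genes, 6 of 23 were called higher with each treatment, and 0 were lower with soluble OVA and 1 with OVA NPs. Of 12 genes of antibody-secreting cells, 7 were higher with each, and 1 was lower with soluble OVA and 0 with OVA NPs, with *Jchain* at 1.08 (SE 0.22) and 1.49 (SE 0.21) and *Tent5c* at 1.22 (SE 0.18) and 1.46 (SE 0.14). Of 13 tested genes of the signals for IgA switching, 5 were lower with soluble OVA and 3 with OVA NPs, and 0 were higher. Among spleen libraries *Igha* stayed between 4.83 and 9.19 CPM throughout.

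**Figure D4:**
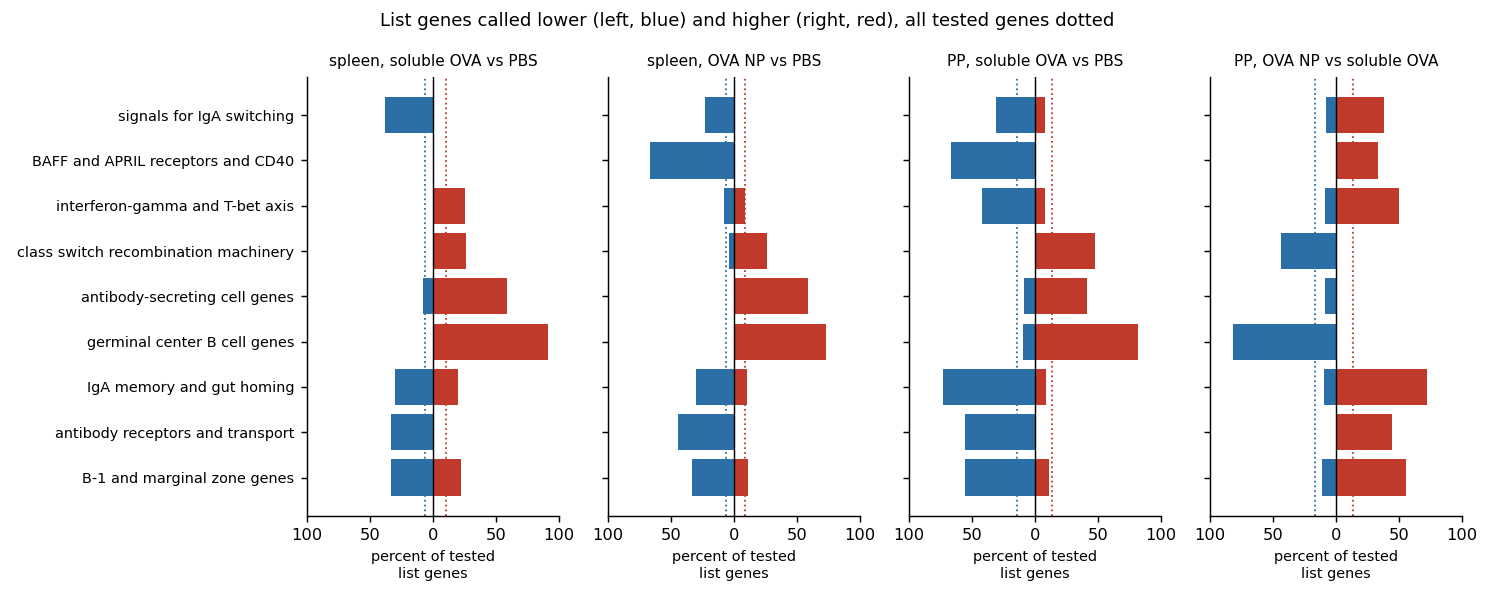
Percent of the tested genes of each list called higher (red, right) or lower (blue, left) in 4 comparisons, with dotted lines at the percent of all tested genes. In PPs with soluble OVA against PBS, germinal center genes (9 of 11) and class switch genes (11 of 23) extend to the right, and IgA memory and gut homing genes (8 of 11) extend to the left.

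Between tissues with PBS, 11 of 11 germinal center genes, 8 of 23 class switch genes, and 9 of 12 genes of antibody-secreting cells were called higher in PPs, against 25.5% of all tested genes. Of the class switch genes 3 were called lower, against 20.1% of all, and 0 of the germinal center and antibody-secreting cell genes were. *Basp1* was higher by a log2 fold change of 5.34 (SE 0.61) and *Jchain* by 2.27 (SE 0.20). Of the genes of IgA memory and gut homing, 6 of 11 were higher in PPs and 3 lower, with *Rora*, a nuclear receptor of the IgA memory list, at 4.37 (SE 0.29), *Ccr10*, a mucosal homing receptor, at 3.21 (SE 0.56), and *Nt5e*, which encodes CD73, at 3.19 (SE 0.12). *Pigr*, which encodes the epithelial transporter of IgA, was higher by 5.67 (SE 0.69), with 143 to 527 CPM in PPs of PBS-treated mice and 5.76 to 6.603 CPM in their spleens.

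The genes most alike to each member in level were taken by Pearson's r of log2 CPM, as a description without a test. Across 18 libraries, *Igha* was most alike to *Fabp1*, *Apoa4*, *Apob*, *Rbp2*, and *Sis* (r = 0.993 to 0.994), all expressed in the absorptive intestinal epithelium, and tissue separates the libraries in all of them. *Fabp1* was at 0 in all 9 spleen libraries and at 55.1 to 451 CPM in PPs. Within the 9 PP libraries the genes most alike to *Igha* were *Coa6*, *Ndufs4*, *Fam81a*, *Pde4a*, and *Mrpl34* (r = 0.922 to 0.951), and none of the former 5 was among them. *Ighg2b* was most alike to *C2cd2l* (r = 0.982) across 18 libraries, to *Nup43* (r = 0.993) within PPs, and to *Chst7* (r = 0.987) within spleens. *Ighg3* was most alike to *Fam167b* (r = 0.956) across 18 libraries, to *Ndufaf7* (r = 0.961) within PPs, and to *Ntng2* (r = 0.943) within spleens. For *Ighg2c* the highest r across 18 libraries was 0.822, with *Bicdl1*.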

How the data were processed

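RNA of B cells from spleen and Peyer's patches was sequenced by the authors as 151 bp paired-end reads, trimmed with Cutadapt 2.3, aligned to GRCm38 (Ensembl 102) with STAR 2.7.8a, and counted per gene with RSEM 1.3.3. The deposited table holds expected counts for 55491 genes in 18 libraries, all of them exactly whole numbers (0 values had a fractional part). CPM were computed from the totals of 14177253 to 30052297 counts, which set the counting error, and CPM per kb from the exonic lengths of GENCODE M21. Sequences came from its transcripts, and 55227 gene IDs matched it.

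Groups and replicate numbers were taken from the labels. Each comparison was fitted on its 6 libraries (12 for interactions) with edgeR 4.0.16 in R 4.3.3 (TMM, filterByExpr with a minimum of 10 counts, robust quasi-likelihood test, Benjamini-Hochberg adjustment over all tested genes). Calls needed an adjusted p below 0.05 with a log2 fold change beyond 0.25 in either direction, as in the study, and for interactions the adjusted p alone. SE is the absolute log2 fold change over the square root of F. The test was checked on simulated data with the same fixed spread for all genes, which does not show how it behaves for genes as variable as *Ighg2c*. The p-values measure the spread between these libraries. Where groups are said not to overlap, the share of all tested genes with such groups is not given. Shares were compared with exact permutation tests over all arrangements of the labels (NumPy 2.4.6). Replicate pairs differed by more than counting error (chi-square per gene 4.72 to 41.3), and 0 of 18 were identical.

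The members and the gene lists were chosen with earlier results of these data known. Named were the 4 members, the other constant regions, up to 4 called genes of each list by size of change, any gene of the antibody-secreting cell list, and the 5 genes most alike to each member averaging 1 CPM or more (V, D, and J segments, unnamed genes, and Gm and Rik symbols were not considered). *Pigr* and *Fabp1* levels per library and the epithelial marker sums of single libraries were added after their values were seen. Alternatives were DESeq2 1.42.0, its size factors, scaling without immunoglobulin genes, other filters, no fold-change cutoff, all libraries in one fit, a replicate block, leaving out each library, and other denominators of the shares.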

Additional observations from a re-analysis of the deposited data

Results flagged for a closer look

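The effect of soluble OVA on *Ighg2b* differed between the tissues by the interaction of tissue and treatment, with 2.03 on the log2 scale (edgeR, adjusted p = 0.0246) and a larger rise in PPs. This call was lost without spleen PBS replicate 1 or 3, spleen soluble OVA replicate 2, or PP soluble OVA replicate 2 (adjusted p = 0.0559 to 0.0742). The effects on *Ighg1*, *Ighe*, and *Ighd* differed by the same test with the opposite sign, -6.51 (adjusted p = 0.000107), -1.99 (adjusted p = 0.0234), and -1.31 (adjusted p = 0.000246). For OVA NPs the effect on *Ighg1* differed by -3.84 (adjusted p = 0.00535), and those on the 4 members did not pass. No formal outlier test was applied to groups of 3 libraries.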

How the results depend on the processing

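Over DESeq2, its size factors, scaling without immunoglobulin genes, both other filters, no fold-change cutoff, all libraries in one fit, the replicate block, and each omitted library, the 18 called results for the 4 genes kept their direction in all 257 values and their call in 236. The 26 results that were not called gave 399 values, of which 13 passed and 29 had the other sign. The causes were not tested. The denominators by shortest transcript and by raw counts of switched isotypes were chosen after the data were seen.

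The number of the 4 genes called changed as follows. For OVA NP against PBS in the spleen it was 0, with 1 in DESeq2 and 1 without the filter, and 0 to 2 when single libraries were left out. For soluble OVA against PBS in the spleen it was 1, with 0 to 1 without single libraries. For the same treatments in PPs it was 3, with 2 without the filter and 2 to 4 without single libraries. For OVA NP against soluble OVA it was 0 in the spleen (1 in DESeq2, 1 without the filter, 0 to 1 without single libraries) and 3 in PPs (1 without the filter, 1 to 4 without single libraries). For the soluble OVA interaction it was 1, with 2 in DESeq2 and 0 to 2 without single libraries. *Ighg3* in PPs with soluble OVA against PBS missed the call without the filter (edgeR, adjusted p = 0.0837). With OVA NP against soluble OVA in PPs, *Ighg3* (0.0672) and *Ighg2c* (0.0779) missed it without the filter. *Ighg2c* also missed it there in the fit of all libraries (0.103).

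Replicate numbers were not treated as pairs, since in no comparison did all 3 same-numbered pairs correlate above 0.1. This check cannot tell whether same-numbered libraries came from the same mice. With the replicate block, 2 of the 4 genes passed with soluble OVA in the spleen (*Ighg3* at adjusted p = 0.00204), *Igha* passed between OVA NP and soluble OVA in PPs (0.0358) and *Ighg3* did not (0.0622), *Ighg3* did not pass between tissues with PBS (0.103), and 0 passed in the soluble OVA interaction (*Ighg2b* 0.0674). The other calls for the 4 genes were unchanged by the block. Over all genes, calls went from 4697 to 3119 for OVA NP against soluble OVA in PPs and from 734 to 348 for the OVA NP interaction.

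*Ighg2c* changed sign around 0 in 2 comparisons. For soluble OVA against PBS in the spleen its log2 fold change was 0.000617 with immunoglobulin genes left out of the scaling, 0.00735 with at least 10 counts in every library, 0.000939 with all libraries in one fit, and 0.0860 with the block. For PPs against spleen with OVA NPs it was 0.00730 in DESeq2, 0.00284 with its size factors, 0.00111 without the filter, 0.0120 with at least 10 counts, and 0.0497 with the block. Without single libraries, uncalled log2 fold changes spanned 0 for OVA NP against PBS in the spleen (*Igha* -0.0247 to 0.35, *Ighg2c* -0.16 to 1.11) and in PPs (*Ighg2b* -0.48 to 0.24, *Ighg2c* -1.06 to 0.88, *Ighg3* -0.0891 to 0.26), for soluble OVA against PBS in the spleen (*Ighg2c* -0.24 to 0.64), for OVA NP against soluble OVA in the spleen (*Igha* -0.29 to 0.10, *Ighg2c* -0.15 to 0.76, *Ighg3* -0.34 to 0.0611), between tissues (*Ighg2c* -0.46 to 1.67 with PBS and -0.35 to 0.61 with OVA NPs), and for the OVA NP interaction (*Ighg2c* -1.70 to 0.46, *Ighg3* -0.31 to 0.0138).

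Shares among switched isotypes alone reversed the tissue difference of *Ighg3* (-14.8 percentage points per kb and -15.2 by raw counts) and of *Ighg2c* (-0.954 and -0.514). The *Igha* share difference was 15.1 to 36.1 points over all denominators. Over all genes, OVA NP against soluble OVA in the spleen gave 33 calls (83 in DESeq2, 230 without the filter, 0 without OVA NP replicate 2, 7 and 10 without soluble OVA replicate 1 or 3). OVA NP against PBS in PPs gave 0 (146 without the filter, 1 with all libraries in one fit, 8 without PBS replicate 3, and 2 without OVA NP replicate 3). The OVA NP interaction gave 734 (1253 in DESeq2, 291 to 488 without spleen PBS replicate 1, 2, or 3, spleen OVA NP replicate 1 or 2, PP PBS replicate 1, or PP OVA NP replicate 2) and the soluble OVA interaction 1131 (1849 in DESeq2, 655 and 700 without spleen PBS replicate 1 or 2). Depth limits *Ighg2c* most, at 16 to 403 counts per library.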

Other observations

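The ratio of *Ighg2b* to *Igha* in CPM per kb was 1.212, 1.212, and 1.214 in the 3 PP libraries of soluble OVA–treated mice, although their *Ighg2b* levels ran from 1292 to 1609 CPM. It was 0.128 to 0.389 in the PBS libraries of PPs and 0.0891 to 0.177 in the OVA NP libraries. These 3 libraries differed from each other beyond counting error, and the ratio was singled out after its values were seen.

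Among OVA NP–treated mice, PP replicate 1 had the highest *Igha* (1179 CPM), *Ighg2b* (193 CPM), *Ighg3* (126 CPM), and *Ighg2c* (2.68 CPM) of its group and the lowest *Ighg1* (559 CPM against 919 and 899.97). Its epithelial marker sum was also the highest of its group (969 CPM), and its plasma cell marker sum was 918 CPM against 794 and 729.7. Neutrophil markers, at 0.141 CPM or less in the other 8 PP libraries, summed to 21.5 CPM in OVA NP replicate 3.

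In the spleen *Ighg2c* stood at 9.07% to 39.8% of *Ighg2b* in CPM per kb, and in PPs at 0.635% to 8.82%. The soluble OVA libraries of PPs held 0.635% to 1.68%.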
